A study of Mus musculus with 24 samples.

Results

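The 9 genes described here are markers of microglia and of the macrophages of the choroid, and they were measured by bulk RNA sequencing in the neural retina and the eye cup of PRDM13-OE and wildtype mice. They were taken from the deposited table by gene symbol (*P2ry12*, *Cx3cr1*, *Tmem119*, *C1qa*, *C1qb*, *C1qc*, *Csf1r*, *Trem2* and *Aif1*), and all 9 of 9 were found among its 56748 genes. All 9 passed the filter on low counts in every comparison. PRDM13-OE mice were heterozygous for a cassette at *Rosa26* on a C57BL/6J background, in which a ubiquitous EF-1α promoter drives the rtTA activator and a TRE3G promoter drives HA-tagged human *PRDM13*, so that induction by doxycycline (dox) is not restricted to a cell type. The wildtype mice were littermates, both sexes were used, and the dox groups drank 2 mg/mL dox in 10% sucrose for 72 hours in early adulthood, while the untreated groups had no treatment. Each of the 12 mice gave a neural retina and the eye cup left after its removal (retinal pigment epithelium, RPE, with choroid and sclera), so that 24 libraries fall into 8 groups of 3. The table lists mouse genes, and the human transgene was not analysed here.

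Microglia are the resident macrophages of the neural retina. At rest they survey the tissue through the nucleotide receptor P2RY12 and the fractalkine receptor CX3CR1, they depend on signalling through the receptor tyrosine kinase CSF1R, and they are a main source of C1q, which starts the classical complement cascade and tags synapses and debris for removal. Macrophages of the choroid and sclera share many of these genes but carry little P2RY12 or TMEM119 protein, which are used to tell microglia apart from them. AIF1, better known as IBA1, is the cytoplasmic protein commonly stained to count both kinds of cell.

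The C1q subunits are encoded side by side on the minus strand of chromosome 4 in GRCm39, the build of the deposited table, with *C1qb* at 136607440 to 136613498, *C1qc* at 136617115 to 136620376 and *C1qa* at 136623228 to 136626114. RefSeq promoter sequences (250 bases before to 50 after the start site, build GRCm38.p6) were found for 6 of the 9 genes, namely *P2ry12*, *C1qb*, *C1qc*, *Cx3cr1*, *Aif1* and *Trem2*. They were searched on both strands for GAGGAA and AGGAAGT, the core letters of the PU box bound by PU.1 (*Spi1*), the defining transcription factor of myeloid cells, and for the longer GAGGAAGT that contains both. GAGGAA was in 4 of the 6 promoters (*C1qb*, *C1qc*, *Aif1* and *Trem2*) and in 28.3% of 32851 promoters of all genes. AGGAAGT was in 3 (*P2ry12*, *C1qb* and *C1qc*) and in 9.35% of all promoters. GAGGAAGT was in *C1qc* alone and in 3.2% of all promoters. The 3 promoters that hold AGGAAGT are shown because they belong to the 3 genes with the lowest adjusted p-values among the 9 in retinas with dox, below. Capitals mark every match to GAGGAA or AGGAAGT on either strand, and in *C1qc* the reverse-strand matches overlap. The windows are chr3:59262936-59263235 for *P2ry12*, chr4:136886151-136886450 for *C1qb* and chr4:136892865-136893164 for *C1qc*, all on the minus strand and written 5′ to 3′ along the gene.
P2ry12: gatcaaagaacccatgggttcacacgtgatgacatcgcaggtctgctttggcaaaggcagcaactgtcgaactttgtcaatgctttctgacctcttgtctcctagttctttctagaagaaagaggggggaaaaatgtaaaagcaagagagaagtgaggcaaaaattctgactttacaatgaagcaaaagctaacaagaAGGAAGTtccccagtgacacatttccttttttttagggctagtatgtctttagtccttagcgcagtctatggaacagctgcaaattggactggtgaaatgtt
C1qb: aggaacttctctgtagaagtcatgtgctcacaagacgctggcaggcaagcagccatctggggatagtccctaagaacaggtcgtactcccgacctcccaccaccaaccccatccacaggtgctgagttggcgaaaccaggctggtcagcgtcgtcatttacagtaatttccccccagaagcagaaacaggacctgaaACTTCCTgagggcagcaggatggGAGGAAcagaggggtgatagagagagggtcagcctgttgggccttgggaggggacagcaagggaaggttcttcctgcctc
C1qc: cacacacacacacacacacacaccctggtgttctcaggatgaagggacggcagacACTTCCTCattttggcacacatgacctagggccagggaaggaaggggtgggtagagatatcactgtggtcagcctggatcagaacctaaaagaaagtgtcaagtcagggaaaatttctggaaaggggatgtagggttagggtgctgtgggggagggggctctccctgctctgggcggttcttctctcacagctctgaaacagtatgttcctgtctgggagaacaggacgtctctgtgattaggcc

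Library totals ran from 15825059 to 24908314 counts. Levels are given as CPM (read counts relative to library size), with library sizes adjusted by TMM factors over all 24 libraries, and levels of different genes are compared only as deposited FPKM, which corrects for gene length. Libraries differed in ways that the group labels do not give. Summed lens crystallin genes ran from 3.3 to 10649 CPM across retinas and reached their highest values in the wildtype dox group, and summed rod genes ran from 3250 to 52140 CPM across eye cups. Summed red blood cell genes were at 0.669 to 1.12 CPM in the PRDM13-OE dox retinas and at 20.4 to 73.4 CPM in the other 9 retinas. RPE genes summed to 66 to 427 CPM in retinas and to 8561 to 53285 CPM in eye cups, which matches the tissue labels. In bulk tissue, fewer cells of a type and less RNA per cell cannot be told apart.

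In the neural retina the C1q transcripts were the most abundant of the 9 per unit of length. *C1qa* had a median of 7.73 FPKM (6.53 to 9.92 over 12 retinas) and *C1qb* a median of 7.67 FPKM (5.88 to 11.4), and the ranges overlapped almost completely. *C1qc* followed at a median of 3.59 FPKM (2.80 to 5.52), below every *C1qb* value. *Csf1r* came next at a median of 2.80 FPKM (2.19 to 3.47), and its range overlapped that of *C1qc* but not that of *Cx3cr1*, at a median of 1.71 FPKM (1.27 to 2.17). *Tmem119* (median 1.52 FPKM) and *P2ry12* (median 1.33 FPKM) overlapped with *Cx3cr1* and with each other. *Trem2*, the lipid-sensing receptor of phagocytic microglia, and *Aif1* were lowest, with medians of 0.434 and 0.276 FPKM that overlapped with each other and stood below every *P2ry12* value. *Aif1* was counted with only 5 to 18 reads per retina, so differences in its retinal level could not be resolved at this depth.

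The first question was whether these genes changed in the neural retina after 72 hours of *PRDM13* overexpression. In PRDM13-OE dox retinas 8 of the 9 genes had a higher fitted level than in wildtype dox retinas, by small amounts, and *C1qc* was the single gene that passed the test. The median of the 9 log2-fold changes was 0.38, beside a median of 0.01 over all 20560 genes tested. None reached the log2-fold cutoff of 1 that the study uses, which 2.41% of genes passed together with an adjusted p-value under 0.05. Without the fold cutoff 1 of the 9 passed, beside 12.5% of all genes, so the share of the 9 that passed was close to that of all genes.

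*C1qc*, the C subunit of C1q, was measured at 9.53, 11.1 and 9.03 CPM in the PRDM13-OE dox retinas and at 7.44, 6.99 and 7.02 CPM in the wildtype dox retinas. In untreated PRDM13-OE retinas *C1qc* was at 7.05, 5.72 and 6.32 CPM, and in untreated wildtype retinas at 6.21, 5.67 and 7.02 CPM. The 3 PRDM13-OE dox retinas stood above the other 9, which overlapped with one another. By edgeR, *C1qc* rose against wildtype dox by 0.46 ± 0.13 (SE) on the log2 scale (adjusted p = 0.0327) and against untreated PRDM13-OE by 0.63 ± 0.15 (SE, adjusted p = 0.0229). Leaving out any 1 library except PRDM13-OE dox replicate 3 moved the first adjusted p-value past 0.05 (up to 0.149), and 4 of 6 such omissions did so in the second (up to 0.151), while the direction held in all of them. The lens crystallin level as a covariate gave *C1qc* a log2-fold change of 0.66 against wildtype dox with an edgeR adjusted p-value of 0.168.

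**Figure D1:**
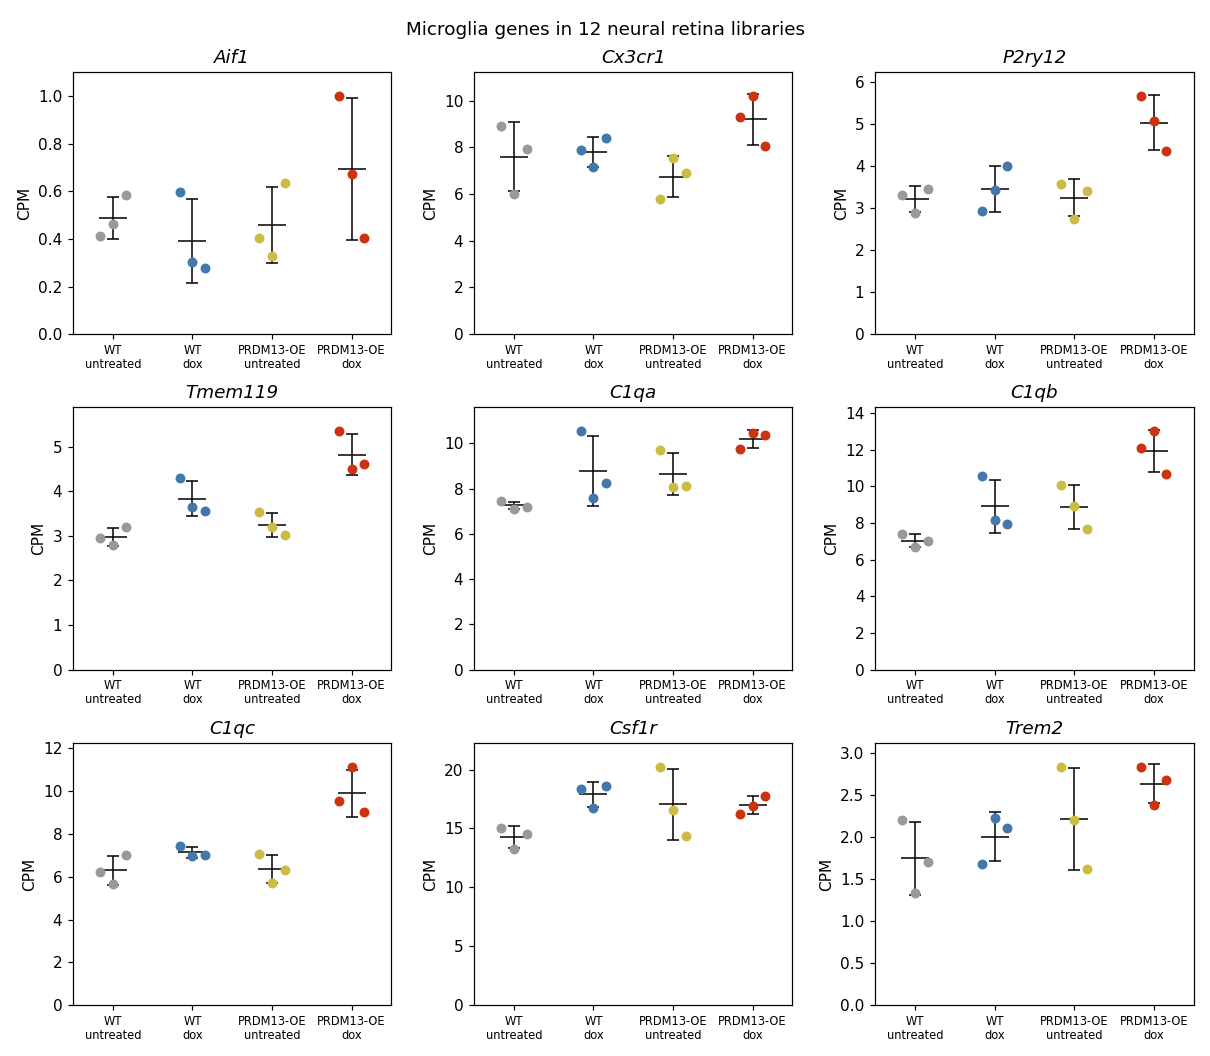
Level of each of the 9 microglia genes in CPM (linear axis from 0) in the 12 neural retinas, by group. Points are libraries, and the bar and whiskers are the mean ± SD of 3. In *C1qc*, *C1qb*, *P2ry12* and *Tmem119* the 3 PRDM13-OE dox points lie above all 9 others, and in *Csf1r* they lie among them.

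*C1qb*, the B subunit, was measured at 12.1, 13.0 and 10.7 CPM in PRDM13-OE dox retinas and at 10.6, 8.15 and 7.97 CPM in wildtype dox retinas. The groups stood apart by a narrow margin, between 10.7 and 10.6 CPM, and its log2-fold change, 0.42 ± 0.13 (SE), missed the threshold (adjusted p by edgeR = 0.0662). *C1qb* passed with library size in place of TMM factors, with no filter on low counts, with robust fitting and without wildtype dox replicate 1 (adjusted p = 0.0179 to 0.0365). *C1qa*, the A subunit, overlapped between the same groups (9.75, 10.5 and 10.3 CPM against 10.5, 7.59 and 8.24 CPM). Its log2-fold change was 0.21 ± 0.14 (SE), and differences between the C1q genes were not tested.

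Among the surface receptors of resting microglia, *P2ry12* was measured at 5.68, 5.08 and 4.36 CPM in PRDM13-OE dox retinas and at 2.93, 3.44 and 4.01 CPM in wildtype dox retinas. Its log2-fold changes of 0.53 ± 0.19 (SE) against wildtype dox and 0.63 ± 0.20 (SE) against untreated PRDM13-OE did not pass (edgeR adjusted p = 0.0861 and 0.103), although the 3 PRDM13-OE dox values were above those of all other retinas. With library size in place of TMM factors *P2ry12* passed against wildtype dox (edgeR adjusted p = 0.0434). *Tmem119*, a transmembrane protein of microglia, was at 5.35, 4.51 and 4.61 CPM in the PRDM13-OE dox group, above the 2.78 to 4.29 CPM of the other 9 retinas. *Cx3cr1* was at 9.31, 10.2 and 8.06 CPM in that group, which overlapped with wildtype dox (7.87, 7.14 and 8.41 CPM) but not with untreated PRDM13-OE (5.78, 7.54 and 6.90 CPM). Neither *Tmem119* (log2-fold change 0.32 ± 0.17, SE) nor *Cx3cr1* (0.23 ± 0.13, SE) passed against wildtype dox.

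*Csf1r*, the receptor for the growth factors that keep microglia alive, was the exception in direction. It was measured at 16.2, 16.9 and 17.7 CPM in PRDM13-OE dox retinas and at 18.4, 16.7 and 18.6 CPM in wildtype dox retinas. The groups overlapped, and the log2-fold change, -0.08 ± 0.08 (SE), missed the threshold (adjusted p by edgeR = 0.584) and was 0.01 with library size in place of TMM factors. *Trem2* was at 2.84, 2.38 and 2.69 CPM against 1.68, 2.23 and 2.12 CPM, which stood apart from wildtype dox but not from untreated PRDM13-OE (1.62 to 2.83 CPM). *Aif1*, with 8 to 18 reads against 5 to 11, had a log2-fold change of 0.80 ± 0.49 (SE) that did not pass.

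The groups did not overlap, with PRDM13-OE dox higher, in 5 of the 9 genes against wildtype dox, where 16.4% of all genes did so. Against untreated PRDM13-OE this held for 6 of the 9, beside 10.8% of all genes, with 1 of 9 past the adjusted p-value threshold beside 5% of all genes and 0 of 9 past the fold cutoff beside 1.04%. In *C1qb*, *C1qc*, *P2ry12* and *Tmem119*, 4 of the 9, the PRDM13-OE dox retinas were above all other 9 retinas, beside 4.59% of all genes. These shares are descriptions, since the comparisons share the PRDM13-OE dox libraries.

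The effect of dox in wildtype mice and that of genotype in untreated mice were compared in the same way. In all comparisons of dox with untreated groups the dox groups also drank 10% sucrose, and dox and sucrose cannot be told apart. In wildtype retinas 4 of the 9 genes (*Tmem119*, *C1qa*, *C1qb* and *Csf1r*) were higher with dox than without and did not overlap, beside 6.44% of all genes. *Csf1r* showed this most clearly, with 18.4, 16.7 and 18.6 CPM in wildtype dox retinas against 15.0, 13.3 and 14.5 CPM in untreated wildtype retinas. The difference, 0.33 ± 0.09 (SE) on the log2 scale, had an adjusted p-value of 0.303 by edgeR. None of the 9 passed edgeR or DESeq2 in this comparison, where 0.00485% of all genes passed by edgeR. An unadjusted edgeR p-value under 0.05 was found for 2 of the 9, beside 1922 of 20631 genes. Between untreated PRDM13-OE and untreated wildtype retinas *C1qa* and *C1qb*, 2 of the 9, were higher without overlap, beside 4.45% of all genes. Again none passed by edgeR or DESeq2, and 0.00484% of all genes passed by edgeR. An unadjusted edgeR p-value under 0.05 was found for 1 of the 9, beside 778 of 20668 genes. Untreated wildtype was thus the group with the lowest mean of *C1qa*, *C1qb*, *C1qc*, *Csf1r*, *Tmem119*, *P2ry12* and *Trem2* in the retina.

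The interaction of genotype and dox asks whether the effect of dox differed between PRDM13-OE and wildtype retinas. None of the 9 passed it by edgeR or DESeq2, beside 3.03% of all genes by edgeR. An unadjusted edgeR p-value under 0.05 was found for 2 of the 9, beside 3247 of 22538 genes. *C1qc* had an interaction of 0.45 ± 0.19 (SE) on the log2 scale (edgeR adjusted p = 0.286) and *Csf1r* one of -0.34 ± 0.16 (SE) (edgeR adjusted p = 0.346). A difference between the genotypes in the response to dox was therefore not shown for any of the 9.

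**Figure D2:**
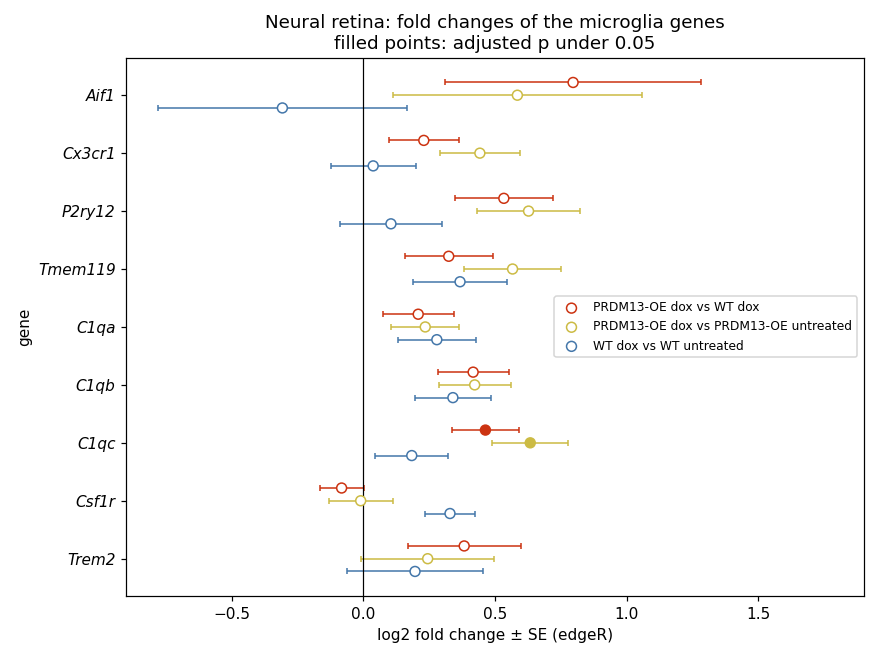
Log2-fold change ± SE (edgeR, x axis) of the 9 microglia genes (y axis) in 3 neural retina comparisons, with filled points where the adjusted p-value was under 0.05. Both filled points belong to *C1qc*, and in *Csf1r* the wildtype dox comparison (0.33) lies to the right of both PRDM13-OE dox comparisons (-0.08 and -0.01).

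Other microglial and myeloid genes gave a mixed picture in PRDM13-OE dox against wildtype dox retinas. Among 12 other genes of resting microglia 1 rose, 0 fell and 11 did not pass, with a median log2-fold change of -0.04. The gene that rose was *Slc2a5*, the fructose transporter GLUT5, from 0.493 ± 0.195 to 1.62 ± 0.303 CPM (SD, n = 3 each), a rise of 1.69 ± 0.35 (SE) on the log2 scale (adjusted p by edgeR = 0.00891). Among 16 genes of microglia and macrophages in general 1 rose and 15 did not pass (median 0.09), and the riser was *Ctss*, the lysosomal protease cathepsin S, from 13.4 ± 0.598 to 17.9 ± 0.951 CPM (SD, n = 3 each), a rise of 0.41 ± 0.09 (SE) on the log2 scale (adjusted p by edgeR = 0.0083). Both rose against untreated PRDM13-OE too, *Slc2a5* by 1.40 and *Ctss* by 0.40 on the log2 scale (edgeR adjusted p = 0.0244 and 0.0364). With the lens covariate neither passed against wildtype dox (adjusted p = 0.0686 and 0.132). *Itgam*, the CD11b integrin subunit, and *Spi1*, which encodes PU.1, did not pass (log2-fold changes 1.01 and 0.80).

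Of 18 genes linked to activated microglia 0 rose and 6 fell, and 12 did not pass (median -0.15). Those that fell most clearly were *Lgals3*, the lectin galectin-3, by 3.88 on the log2 scale from 5.23 to 0.345 CPM (edgeR adjusted p = 0.000206), *Cd9*, a tetraspanin, by 0.46 (adjusted p = 0.00231), *Gpnmb*, a glycoprotein of pigment cells and phagocytes, by 1.30 (adjusted p = 0.00423), and *Apoe*, the lipid carrier that Müller glia also make, by 0.29 (adjusted p = 0.0149). *Gpnmb* did not pass with robust fitting, neither *Gpnmb* nor *Apoe* passed with the lens covariate, and *Apoe* changed sign there (0.11). Several of these genes are expressed by other cells of the eye, and *Lgals3* was at 2.45 to 6.99 CPM in wildtype dox retinas but at 1.29 to 1.97 CPM in the 6 untreated retinas. The lens sum was 107 to 10649 CPM in the wildtype dox group and 3.3 to 26.5 CPM in the PRDM13-OE dox group, and its part in these differences was not tested beyond that covariate.

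Border macrophage genes were scarce in the retina, where the list of 12 summed to 18.4 to 20.1 CPM in PRDM13-OE dox and 27.1 to 31.8 CPM in wildtype dox retinas. *Lyve1*, a hyaluronan receptor of lymphatic endothelium and perivascular macrophages, supplied most of that sum and fell by 0.66 on the log2 scale (11.9 against 18.7 CPM, edgeR adjusted p = 0.00039). It was the 1 of 11 tested that passed, and *Mrc1* and *Cd163*, which define such macrophages, had group means of 0.103 to 0.304 CPM. The sum of 7 endothelial genes was 138 to 161 CPM against 290 to 308 CPM, mainly through *Kdr*, the VEGF receptor VEGFR2, which fell by 1.33 on the log2 scale (adjusted p = 8.76e-07). Rod genes summed to 51762 to 57763 CPM against 68573 to 71440 CPM. The lower rod, endothelial and red blood cell levels moved with the higher C1q and P2ry12 levels, and their part in the result was not tested.

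Other complement genes, which act with and after C1q or restrain the cascade, were examined in the same retinas. Of 15 such genes 0 rose by edgeR, and their median log2-fold change was -0.26. *C4b*, which C1 cleaves through its protease subunits, was at 24.5 CPM against 15.7 CPM with overlapping groups (log2-fold change 0.64, edgeR adjusted p = 0.0833). *C3*, the central component, was at 2.97 CPM against 3.35 CPM and did not pass.

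The ligands and adaptors of the 9 genes were measured in the same retinas. *Cx3cl1*, which encodes the neuronal ligand of CX3CR1, was abundant at 144 ± 5.65 CPM in PRDM13-OE dox and 177 ± 12.4 CPM in wildtype dox retinas (SD, n = 3 each). It fell by 0.31 ± 0.06 (SE) on the log2 scale (edgeR adjusted p = 0.00733) and by 0.24 against untreated PRDM13-OE (adjusted p = 0.0353), while its receptor gene *Cx3cr1* did not pass. It was the 1 of 10 partners that passed against wildtype dox. *Csf1* and *Il34*, the ligands of CSF1R, did not pass, at 9.23 against 7.34 CPM and 9.18 against 9.71 CPM. The TREM2 adaptor *Tyrobp* (1.96 against 2.25 CPM), the adaptor *Hcst* (0.144 against 0.177 CPM), the downstream kinase *Syk* (0.686 against 0.724 CPM), *Plcg2* (1.94 against 1.84 CPM) and the phosphatase *Inpp5d* (2.13 against 2.71 CPM) did not pass. Nor did *Entpd1*, the ectonucleotidase that consumes the P2RY12 ligand ADP (3.79 against 5.18 CPM), or *Tgfb1*, which maintains the resting state of microglia (2.71 against 4.29 CPM).

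The next comparison set the neural retina against the eye cup in untreated wildtype mice. Here 7 of the 9 genes were lower in the retina past both cutoffs, beside 25.9% of all genes that were called lower and 61.5% that passed in either direction. The groups did not overlap, with retina lower, in 8 of the 9, beside 34.6% of all genes. The median log2-fold change of the 9 was -2.37, beside -0.06 over all 21979 genes. The exceptions were *P2ry12* and *Cx3cr1*.

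*Csf1r* differed most, at 15.0, 13.3 and 14.5 CPM in the retinas and 226, 282 and 257 CPM in the eye cups of the same mice. On the log2 scale its difference was -4.25 ± 0.16 (SE), with an adjusted p of 2.94e-06 by edgeR. The C1q genes were lower in the retina by 2.37 to 2.70 on the log2 scale, for example *C1qa* at 7.25 ± 0.172 CPM against 44.4 ± 10.7 CPM (SD, n = 3 each). *Aif1* was lower by 2.88, *Tmem119* by 2.27 and *Trem2* by 1.70 on the log2 scale. All 7 were called in each fit that left out 1 library.

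*P2ry12*, by contrast, was measured at 3.31, 2.89 and 3.46 CPM in the retinas and 2.58, 3.46 and 2.57 CPM in the eye cups. These values overlapped, and the difference was 0.08 ± 0.26 (SE) on the log2 scale, with an adjusted p of 0.798 by edgeR. *Cx3cr1* was at 8.92, 5.98 and 7.92 CPM in the retinas and 10.8, 11.2 and 9.06 CPM in the eye cups, without overlap, but its log2-fold change, -0.53 ± 0.21 (SE), missed the threshold (adjusted p by edgeR = 0.0637). It passed with edgeR's own filter (-0.57) and with all 24 libraries and the mouse as a block (-0.63, edgeR adjusted p = 0.000195). The scaling matters for such small differences, since library size in place of TMM factors moved the median of all genes to 0.24 and *P2ry12* to 0.38 on the log2 scale, still not past the threshold.

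**Figure D3:**
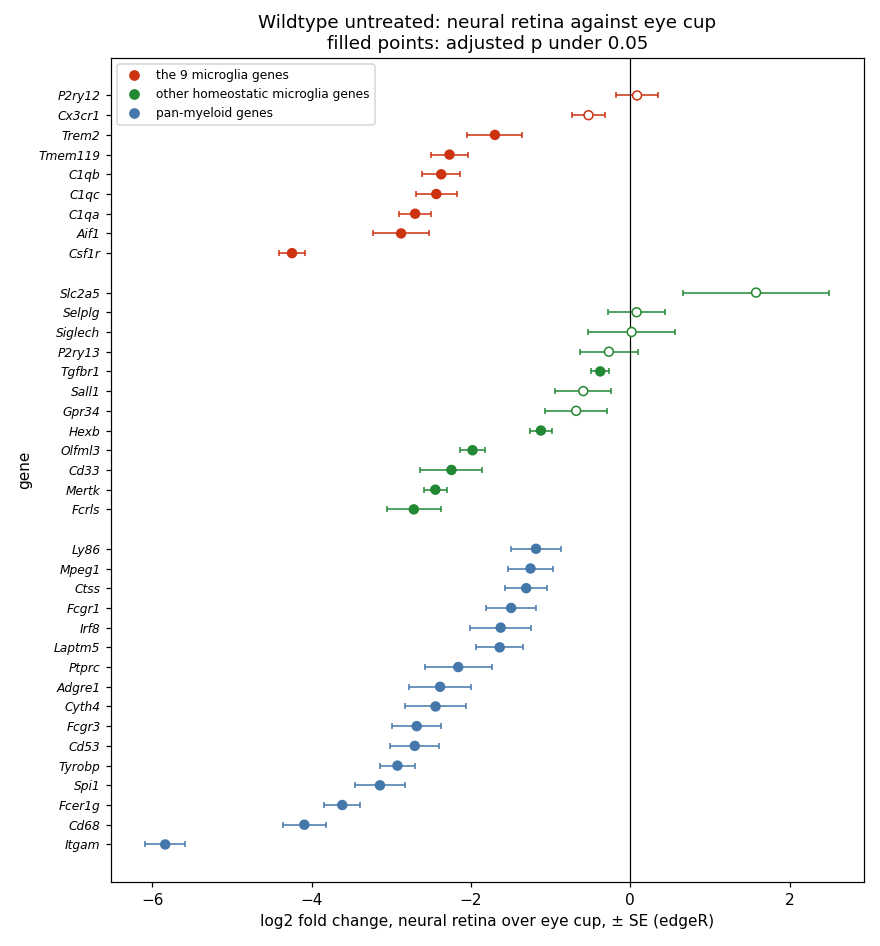
Log2-fold change ± SE (edgeR, x axis; negative is lower in the neural retina) for the 9 microglia genes, 12 other genes of resting microglia and 16 genes of microglia and macrophages in general (y axis), in untreated wildtype mice. Filled points passed an adjusted p-value of 0.05. All 16 general genes lie to the left of -1, whereas *P2ry12*, *Cx3cr1* and 6 of the 12 resting microglia genes are unfilled.

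Other lists divided in the same comparison. All 16 genes of microglia and macrophages in general were lower in the retina (median log2-fold change -2.42), from *Ly86* at -1.18 to *Itgam* at -5.84. Of the 12 other genes of resting microglia 6 were lower and 6 did not pass (median -0.64). Those that did not pass included *P2ry13*, the sister receptor of P2RY12 (-0.27), *Gpr34* (-0.68), *Siglech* (0.02) and *Selplg* (0.08). Of 12 border macrophage genes 11 were lower in the retina and 1, *Lyve1*, was higher (median -5.86). The eye cups of these mice also held summed rod genes at 3250 to 26960 CPM, against 70549 to 72329 CPM in the retinas. Over all 12 eye cups the Pearson correlation of log2 *P2ry12* with the log2 rod sum was 0.40 (Spearman 0.40). It was 0.55 without the 2 eye cups farthest from the median rod sum, 0.53 within the 6 dox and 0.26 within the 6 untreated eye cups, and the part of retinal tissue in the eye cup level of *P2ry12* was not tested.

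Some of these reads may be shared with genes on the other strand, because the protocol in the labels names both directional and non-directional libraries. Of the exon bases of *Csf1r*, 19.8% overlap the opposite-strand gene *Hmgxb3*, which was at 35.7 to 42.3 CPM in retinas and 15.4 to 31.6 CPM in eye cups, the reverse of the tissue order of *Csf1r*. For *P2ry12* the overlap is 9.17% with *Med12l*, which was at 14.1 to 19.4 CPM in retinas and 3.86 to 13.4 CPM in eye cups. *Med12l* was at 14.1 to 16.7 CPM in PRDM13-OE dox retinas and 14.1 to 19.4 CPM in wildtype dox retinas. *Aif1* shares 16.6% with *Gm17705*, which was at 1.51 ± 0.214 CPM in PRDM13-OE dox and 0.51 ± 0.357 CPM in wildtype dox retinas (SD, n = 3 each). *C1qc*, the gene that passed in the retina, shares 8.64% of its exon bases with the opposite-strand gene *Gm69251*, and *Trem2* shares 8.75% with *Gm65654*, and the levels of these 2 partners were not analysed here. The overlap was 1.67% for *Cx3cr1* (*Gm33858*) and 0.977% for *C1qb* (*Gm69251*). The share of reads that crossed between such genes was not tested.

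In the eye cup the order of the 9 per unit of length was different. *C1qa* had a median of 37.3 FPKM (26.7 to 58.3 over 12 eye cups), *Csf1r* of 30.4 FPKM (13.4 to 71.9) and *C1qb* of 27.7 FPKM (18.6 to 44.6), with ranges that overlapped. *C1qc* followed at 14.4 FPKM (10.3 to 24.2) and stood above every value of *Tmem119*, at a median of 5.05 FPKM (3.03 to 7.43). *Cx3cr1* (2.55), *Aif1* (1.66), *P2ry12* (1.20) and *Trem2* (1.04) had the lowest median FPKM, each overlapping its neighbour in the order. The order of the group means of *Csf1r* and *C1qb* in the eye cup differed between untreated and dox groups, but the ranges of these genes overlapped within every group. Mean *Csf1r* was 48.4 and 45.3 FPKM in untreated PRDM13-OE and wildtype eye cups, against 33.6 and 32.5 FPKM for *C1qb*. In the dox eye cups mean *Csf1r* was 21.5 (PRDM13-OE) and 21.3 FPKM (wildtype), against 30.7 and 22.1 FPKM for *C1qb*. The FPKM of *Csf1r* was 0.291 to 0.406 times that of *C1qa* in the 12 retinas and 0.457 to 1.25 times in the 12 eye cups.

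Between PRDM13-OE dox and wildtype dox eye cups none of the 9 passed by edgeR or DESeq2, where 0.0184% of all genes passed by edgeR. An unadjusted edgeR p-value under 0.05 was found for 2 of the 9, beside 1792 of 21758 genes. *C1qc* was at 35.5, 44.4 and 23.8 CPM against 26.9, 24.8 and 20.5 CPM, a difference of 0.62 ± 0.26 (SE) on the log2 scale with an adjusted p of 0.597 by edgeR. Leaving out 1 library at a time gave *C1qc* log2-fold changes of 0.38 to 0.83, of which only that without PRDM13-OE dox replicate 3, the lowest of its group, passed (edgeR adjusted p = 0.0441, against 0.629 to 0.971 for the other 5). That library had a rod sum of 39785 CPM, against 13849 and 5933 CPM in the other PRDM13-OE dox eye cups and 27920 to 52140 CPM in the wildtype dox eye cups. With the rod level as a covariate the log2-fold change of *C1qc* was 0.12. *Aif1* was at 3.71, 2.46 and 2.04 CPM against 1.43, 1.34 and 1.56 CPM, without overlap, as for 5.41% of all genes, and with a log2-fold change of 1.02 ± 0.37 (SE) that did not pass. *Csf1r* was at 110, 176 and 79.9 CPM against 94.2, 140 and 153 CPM (log2-fold change 0.01).

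**Figure D4:**
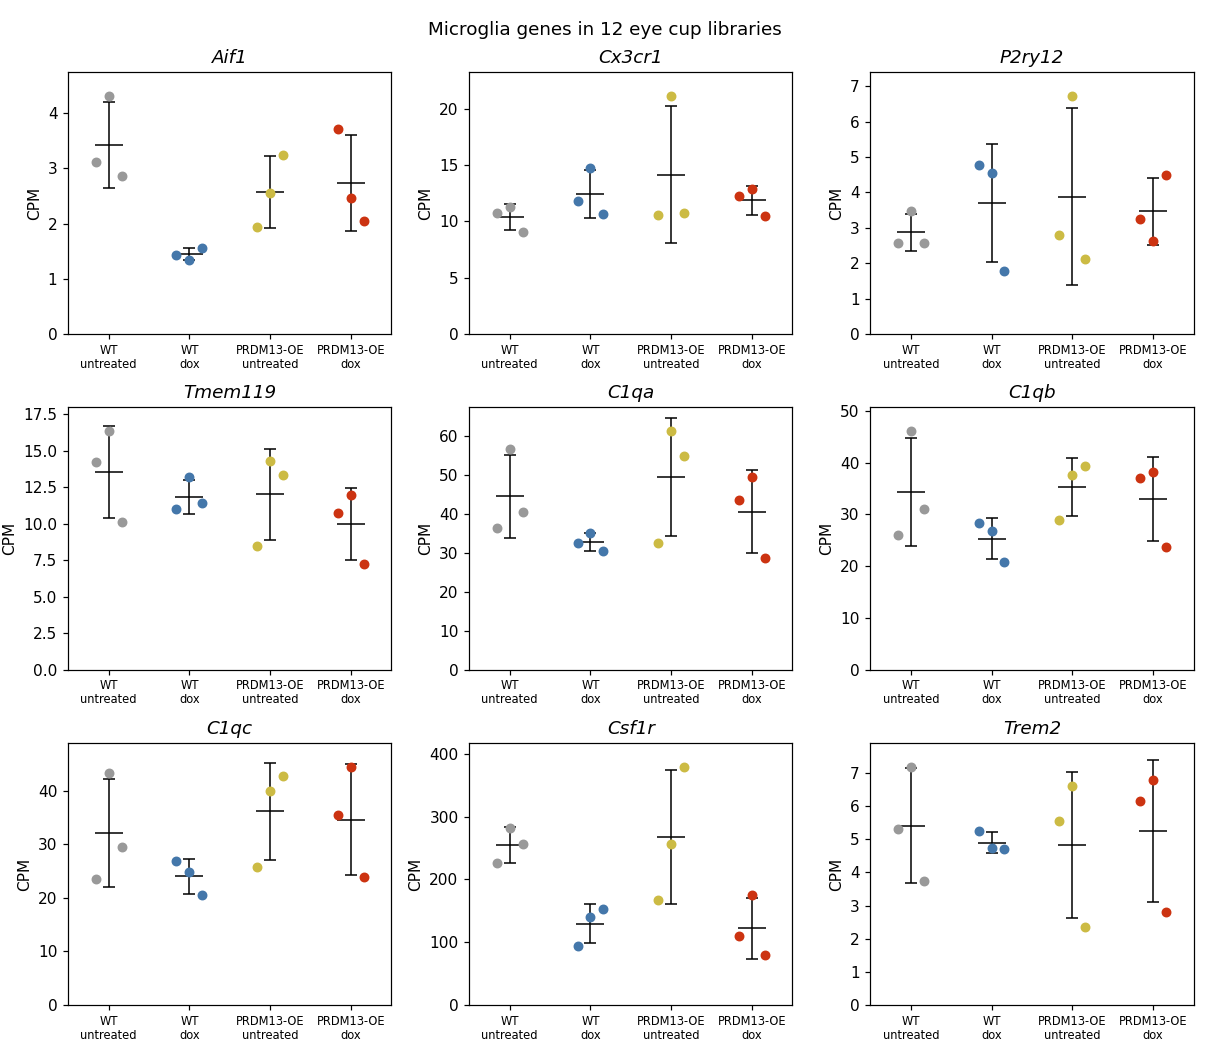
Level of each of the 9 microglia genes in CPM (linear axis from 0) in the 12 eye cups, by group. Points are libraries, and the bar and whiskers are the mean ± SD of 3. *Csf1r* and *Aif1* are lower in wildtype dox than in untreated wildtype without overlap, and most other genes overlap between groups.

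Dox in wildtype eye cups gave the lowest adjusted p-values of the eye cup comparisons for these genes, although none of the 9 passed by edgeR and 0% of all genes did so. *Csf1r* was at 94.2, 140 and 153 CPM with dox and at 226, 282 and 257 CPM without, and its difference of -1.05 ± 0.21 (SE) on the log2 scale had an adjusted p-value of 0.0673 by edgeR. *Aif1* was at 1.43, 1.34 and 1.56 CPM with dox and 3.11, 4.31 and 2.86 CPM without, a difference of -1.31 ± 0.31 (SE) on the log2 scale with an adjusted p of 0.069 by edgeR. In both genes, and in *C1qa* (32.5, 35.1 and 30.4 CPM against 36.3, 56.5 and 40.4 CPM), the dox group was lower without overlap, 3 of the 9 beside 14.3% of all genes. DESeq2 passed *Csf1r* and *Aif1*, beside 4152 of all 21799 genes. An unadjusted edgeR p-value under 0.05 was found for 3 of the 9, beside 6517 of 21799 genes. Both shares of the 9 were close to those of all genes. The same eye cups differed in tissue content, with summed rod genes at 27920 to 52140 CPM with dox against 3250 to 26960 CPM without, and summed RPE genes at 10599 to 23627 CPM against 31373 to 48315 CPM. With the rod level as a covariate the log2-fold change of *Csf1r* was -0.44, of *Aif1* -0.88 and of *C1qa* -0.03, and *C1qb* and *C1qc* changed from -0.51 and -0.49 to 0.04 and 0.14.

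No member passed by edgeR or DESeq2 in the other eye cup fits. Between PRDM13-OE dox and untreated PRDM13-OE eye cups *Csf1r* was at 110, 176 and 79.9 CPM against 168, 256 and 380 CPM, overlapping between 176 and 168 CPM. Its log2-fold change was -1.14 ± 0.44 (SE), and 0.0139% of all genes passed by edgeR. There 1 of the 9 had an unadjusted edgeR p-value under 0.05, beside 894 of 21604 genes. Between untreated PRDM13-OE and untreated wildtype eye cups 0 of the 9 had an unadjusted edgeR p-value under 0.05, beside 404 of 21588 genes (0% of all genes passed). In the interaction of genotype and dox 1 did, *Aif1*, beside 1526 of 23837 genes (0% of all genes passed). The difference between retina and eye cup in the genotype effect under dox gave 0 of the 9 with an unadjusted edgeR p-value under 0.05. Among all genes 1698 of 23678 had such a value, and 0% passed. For *C1qc* that difference was -0.18 ± 0.30 (SE) on the log2 scale, so an effect in the retina that was absent from the eye cup was not shown.

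Across the 12 eye cups *Csf1r* followed the RPE and fibroblast genes more closely than it followed the other 8 genes, with which its correlation was at most 0.72. This pattern was chosen after its values were seen, and the correlations below are descriptions over libraries that share tissue content. The Pearson correlation of log2 *Csf1r* with the log2 sum of 9 RPE genes was 0.95 (Spearman 0.94, n = 12), and 0.94 without the 2 eye cups farthest from the median RPE sum. It was 0.87 within the 6 dox eye cups and 0.85 within the 6 untreated ones. For *C1qa* the correlation with the RPE sum was 0.54, for *C1qb* 0.37, for *C1qc* 0.36, for *Tmem119* 0.48, for *Aif1* 0.45, for *Trem2* -0.10, for *Cx3cr1* -0.16 and for *P2ry12* -0.45. Without the same 2 eye cups *Aif1* was at 0.84 and *Tmem119* at 0.21, and with the fibroblast sum over all 12 *Tmem119* was at 0.69. The sum of 6 fibroblast genes gave *Csf1r* a correlation of 0.89, which was 0.80 within the dox and 0.97 within the untreated eye cups, above the RPE value in the latter. The sum of 16 genes of microglia and macrophages in general gave *Csf1r* 0.61, against 0.79 for *C1qa* and 0.83 for *C1qb*. The genes most like *Csf1r* in the eye cup were *Stard13* (Pearson correlation 0.996), *Prdm16os* (0.991), *Slc7a10* (0.990), *Soat1* (0.990) and *Col9a3* (0.990) among 15795 genes, and in the retina none was above 0.888 (*Gbp2*).

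**Figure D5:**
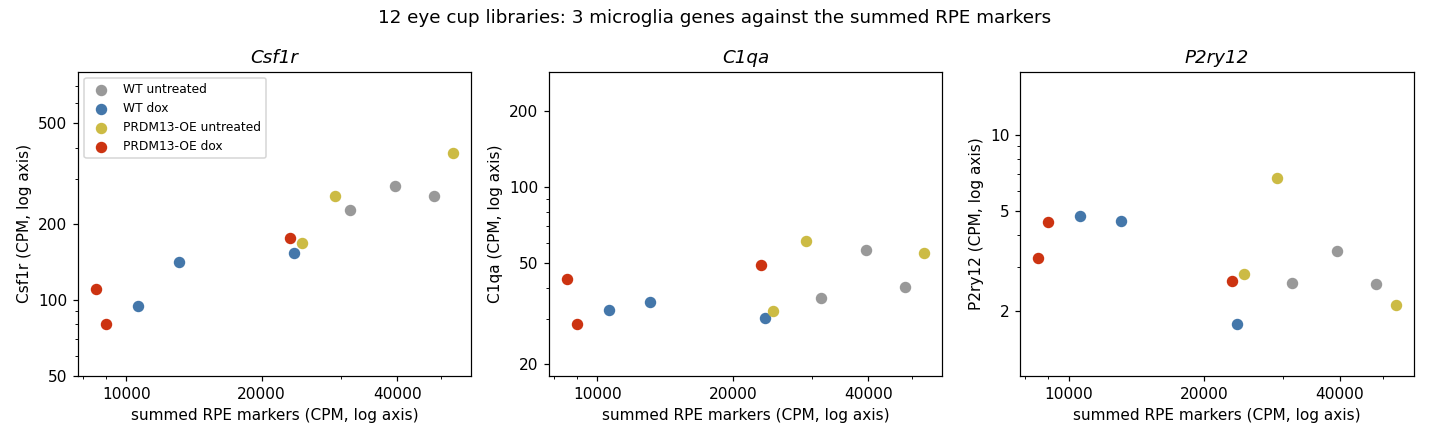
*Csf1r*, *C1qa* and *P2ry12* (y axes, CPM, log scale) against the summed CPM of 9 RPE genes (x axes, log scale) in the 12 eye cups, coloured by group. *Csf1r* climbs from 79.9 to 380 CPM along the RPE sum (correlation 0.95), and *C1qa* (0.54) and *P2ry12* (-0.45) do not line up with it in the same way.

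The 9 genes were also compared with one another. Over 12 retinas the correlation of log2 levels was 0.93 for *C1qa* with *C1qb*, 0.84 for *C1qb* with *C1qc*, 0.76 for *C1qa* with *C1qc* and 0.88 for *P2ry12* with *C1qc*. In the eye cups the C1q trio was at 0.91 to 0.97, whereas *P2ry12* was at 0.11 to 0.13 with the trio and at 0.70 with *Cx3cr1*. The genes most like the mean of the 9 in the retina were *Ctss* (0.943), *Ppp1r18* (0.935), *Hpcal4* (0.928), *Dhx32* (0.927) and *Ddr1* (0.927) among 14723 genes. In the eye cup they were *Cep152* (0.921), *2310065F04Rik* (0.889), *Cox7a1* (0.884), *Irf8* (0.878), a transcription factor of myeloid cells, and *Arhgap30* (0.872). With 12 libraries that share groups and tissue content, such values describe these libraries only.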

How the data were processed

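RNA of neural retina and eye cup from 12 mice was sequenced after poly(A) selection. Per the labels, the authors' processing notes name CASAVA, HISAT2 and the GRCm39 (mm39) build, and the counting tool and annotation release are not given in the sources used here. Raw read counts of each gene, deposited by the authors without normalization, were the input to every test. The authors also deposited FPKM, computed from gene length and read count, used here only to compare levels between genes. The table also holds the authors' 12 sets of comparison columns (group means, fold changes, p-values), which were not used.

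Each comparison was fitted with edgeR 4.0.16 (R 4.3.3, limma 3.58.1) by the quasi-likelihood test without robust fitting. TMM factors were computed over the libraries of the fit, genes with at least 10 counts summed over them were kept, and p-values were adjusted by Benjamini-Hochberg over all genes tested. A gene passed at an adjusted p-value under 0.05 and was called with a log2-fold change past 1 as well, the study's cutoffs. Log2 values of levels used log2(CPM + 0.5). Correlated genes needed a mean of at least 1 CPM. The tests were checked on simulated counts. Libraries of one group came from separate mice.

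Alternatives were DESeq2 1.42.0, library size in place of TMM, no filter, edgeR's filterByExpr, robust fitting, no fold cutoff, one fit of all 12 libraries from a tissue, the lens or rod level as covariate, a replicate block, and leaving out each library. Retina and eye cup of one mouse are paired by the labels. Their deviations from the group means correlated at -0.00052 to 0.18 over the 12 mice. The 9 genes and all gene lists were chosen with earlier results of these data known. All 9 genes were tested in every comparison. The rule was to name all 9 each time, but in comparisons where none or few passed by edgeR only some are named and the rest are covered by counts. From each list the genes with the lowest adjusted p-values among those that passed were named, at most 4, and all partner genes were named in the retina comparison of PRDM13-OE dox with wildtype dox. Other members of lists named with a value, and the lists of genes most like *Csf1r*, were chosen after their values were seen. A result for a further gene of the complement list is not reported here. Exon overlaps come from GENCODE vM39. Summaries and figures used python 3.11.15, numpy 2.4.6, pandas 2.3.3 and matplotlib 3.10.9.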

Additional observations from a re-analysis of the deposited data

Results flagged for a closer look

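For 4 genes of the lists, and for none of the 9 microglia genes, the effect of dox on the neural retina differed between PRDM13-OE and wildtype mice by the interaction test of edgeR. The interaction on the log2 scale was 1.94 ± 0.49 (SE) for *Slc2a5* (adjusted p = 0.0365), -4.01 ± 0.56 (SE) for *Lgals3* (adjusted p = 0.000357), -0.74 ± 0.12 (SE) for *Cd9* (adjusted p = 0.000954) and -0.64 ± 0.15 (SE) for *Lyve1* (adjusted p = 0.0261). In *Lgals3* dox went with a lower level in PRDM13-OE retinas (0.345 against 1.73 CPM) and a higher level in wildtype retinas (5.23 against 1.58 CPM). In *Slc2a5* it went with a higher level in PRDM13-OE retinas (1.62 against 0.608 CPM), beside 0.493 against 0.726 CPM in wildtype.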

How the results depend on the processing

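The number of the 9 genes called with the fold cutoff was 0 in the comparisons within a tissue and 7 between tissues, and it kept these values under all alternatives but those given next. Without the fold cutoff 1 gene passed in PRDM13-OE dox against wildtype dox retinas and 1 against untreated PRDM13-OE retinas. In wildtype dox against untreated eye cups no filter gave 1 call, DESeq2 gave 2, and leaving out 1 library gave 0 to 2 (1 without wildtype dox replicate 3, 2 without untreated wildtype replicate 1). Over all genes no filter called 700 higher and 360 lower of 29063 there, and DESeq2 called 1371 higher and 597 lower of 21799. *C1qc* was 0.36 to 0.52 against wildtype dox and 0.54 to 0.71 against untreated PRDM13-OE retinas over the fits without 1 library, and 0.66 with the lens covariate against wildtype dox, not passing. *Csf1r*, near 0 in both retina comparisons, changed sign with library size only (0.0064 and 0.055) and, against untreated PRDM13-OE, over the fits without 1 library (-0.125 to 0.128) and with the replicate block (0.00097). *C1qb* and *C1qc* in wildtype eye cups (0.041 and 0.14) and retinal *Apoe* (0.11) did so with the rod or lens covariate. The cause was not tested. Same-numbered mice of different groups correlated at -0.55 to 0.63. The 2 tissues of one mouse, a known pair, reached only -0.00052 to 0.18. These correlations therefore cannot show whether the numbers pair mice of different groups. With the replicate block *C1qc* still passed in both retina comparisons (adjusted p = 0.0416 and 0.0477), and between tissues, where the same mouse pairs the samples, 7 genes were called. Within a tissue 0 were called with the replicate block. In wildtype dox against untreated eye cups 1348 of all genes passed with library size only, against 0 with TMM factors, and their median log2-fold change moved to 0.13.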
